A study of Mus musculus with 4 samples.

Results

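EN7 is 1 of 13 subtypes of excitatory neurons in a single-nucleus RNA sequencing study of the mouse superior colliculus, a midbrain region that receives retinal input and steers orienting movements. Its members were all nuclei that carried the subtype label EN7 in the deposited table of nuclei, 226 of 9724 in all. Of these, 33 came from embryonic day 19 (E19), 191 from postnatal day 4 (P4), 1 from postnatal day 8 (P8) and 1 from postnatal day 21 (P21), so that 84.5% were from P4. All mice were C57BL/6J with no treatment named, and each stage was represented by 1 library of pooled tissue from several animals. How many animals entered each pool is not stated in the labels. The comparison group was the other excitatory neurons of the same library, 1305 nuclei at E19 and 1015 at P4. With 1 library per stage there was no replicate check and no test. EN7 was also a cluster drawn from these same genes, so its differences from other neurons describe the cluster. All intervals below are 95% intervals that cover counting error only.

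Excitatory neurons of the midbrain and thalamus release glutamate, which they load into vesicles with the transporter encoded by Slc17a6. Late embryonic and early postnatal days are the time when such neurons sort their inputs and form synapses, using adhesion molecules, guidance receptors and receptor channels that differ between cell types. Transcription factors that persist from patterning, such as those of the Meis, Ebf and Tcf7l2 kind, mark where a neuron came from. Serotonin is made by neurons of the raphe, but in perinatal rodents some glutamatergic neurons, among them sensory neurons of the thalamus, are known to carry the serotonin transporter and the vesicular monoamine transporter for a time without making serotonin.

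The EN7 nuclei of P4 held 2775697 counts of unique molecular identifiers (UMIs, each standing for 1 captured RNA molecule), with a median of 13916 UMIs and 4513 genes per nucleus, against 11291 UMIs in the other excitatory neurons. At E19 EN7 held 311200 UMIs with a median of 9745, against 8029. Nuclei with 2 or more UMIs of the inhibitory genes Gad1, Gad2 and Slc32a1 together made up 6.28% of EN7 and 9.95% of the other excitatory neurons at P4, and 12.1% and 7.05% at E19. In the authors' own clustering, 221 of the 226 nuclei of cluster 17 were labelled EN7. Of 9 barcodes found in more than 1 library, 0 belonged to EN7.

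**Figure D1:**
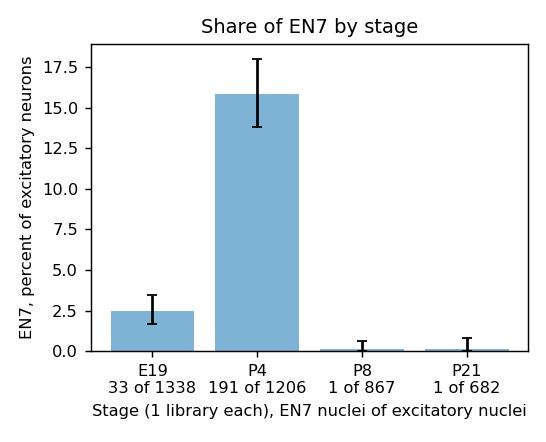
Bars give EN7 as a percent of all excitatory neurons in each library, with exact binomial 95% intervals as error bars and the counts of nuclei under each stage. The P4 bar stands at 15.8% and the E19 bar at 2.47%, and P8 and P21 hold 1 nucleus each.

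EN7 made up 2.47% of the excitatory neurons at E19 (33 of 1338, Clopper-Pearson interval 1.70 to 3.45%) and 15.8% at P4 (191 of 1206, 13.8 to 18.0%). At P8 and P21 it was 1 nucleus each, 0.115% of 867 (0.00292 to 0.641%) and 0.147% of 682 (0.00371 to 0.814%). These intervals cover the counting of nuclei and not the spread between animals or dissections, and EN7 was taken up as a subtype found mostly at P4, so the shares are a description. The P8 nucleus carried 0 UMIs of Rnf220 and 1 of Ntng1 among 10561, and sat in another of the authors' clusters (6). The P21 nucleus, of 31073 UMIs, carried 51 UMIs of Rnf220, 48 of Ntng1, 23 of Tcf7l2, 16 of Synpo2 and 12 of Kitl, and sat in cluster 17. Stage, dissection and library cannot be told apart here, since each stage was 1 library, and these shares are shares of captured nuclei.

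The label was checked against 4 marker genes supplied with it. Rnf220 (ENSMUSG00000028677, chr4:117271463-117497052 of GRCm38, minus strand), which encodes a RING-type ubiquitin ligase known to stabilise beta-catenin in Wnt signalling, reached 3921 UMIs per 1000000 UMIs (CPM) in EN7 at P4 against 73.3 CPM in the other excitatory neurons. At E19 it stood at 6131 against 120 CPM. Every EN7 nucleus of P4 held 7 or more of its UMIs, with a median of 52 and a maximum of 173, whereas the median of the other excitatory nuclei was 0. The log2 ratio of EN7 to the other excitatory neurons, taken here and below after adding 5 CPM to both sides, was 5.65 (interval 5.56 to 5.74) at P4 and 5.62 (5.52 to 5.72) at E19. EN2 came next among excitatory subtypes at P4 with 197 CPM and EN13 was lowest with 21.6 CPM.

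Ntng1 (chr3:109780040-110144011), which encodes the membrane-anchored adhesion molecule netrin-G1, stood at 3506 CPM in EN7 and 1046 CPM in the other excitatory neurons at P4, a log2 ratio of 1.74 (1.70 to 1.78). EN3 was nearest to it with 1649 CPM. Plekhg1, a guanine nucleotide exchange factor, was at 72.8 against 14.4 CPM (log2 ratio 2.0, 1.75 to 2.25), but 110 of the 191 EN7 nuclei held no UMI of it. Slc17a6, the vesicular glutamate transporter, did not set EN7 apart: it stood at 247 and 240 CPM (0.04, -0.08 to 0.16). Thus 3 of the 4 markers were past 2-fold at P4. The fourth was detected in all but 18 of the 191 nuclei, with a median of 3 UMIs, at the level of the other excitatory neurons.

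Free RNA can place UMIs in any nucleus, so shares of nuclei with a UMI were set beside astrocytes after each nucleus was thinned to 2300 UMIs. Rnf220 was then found in 99% of EN7 nuclei at P4 (96.3 to 99.9%), in 8.67% of other excitatory neurons and in 14.8% of astrocytes. Without thinning those shares were 100, 33.0 and 27.4%, at median depths of 13916, 11291 and 4329 UMIs. Ntng1 was found in 99% of thinned EN7 nuclei, in 74.5% of other excitatory neurons and in 29.1% of astrocytes. Plekhg1 gave a different picture: astrocytes held it in 56.1% of thinned nuclei against 11% in EN7 and 2.56% in other excitatory neurons.

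At P4, 191 of 7407 genes at 20 CPM or more in the higher group were at least 2-fold higher in EN7 (2.58% of the genes compared) and 284 were at least 2-fold lower (3.83%). The median log2 ratio over all those genes was -0.039. The 24 genes with the largest ratios at 100 CPM or more stood at 138 to 3921 CPM in EN7 and at 6.02 to 1046 CPM in the other excitatory neurons. In all 24 of them EN7 was the highest of the 13 excitatory subtypes, and in 20 it was the highest of all 25 neuron subtypes with enough nuclei. Picking genes by their ratio in this same library favours such a result, so these counts are a description. Among all 1845 genes at 100 CPM or more in EN7, it was the highest excitatory subtype in 14.2%. The last gene inside this list had a log2 ratio of 1.74 and the first outside it 1.66, so the edge of the list is not a break in the data.

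**Figure D2:**
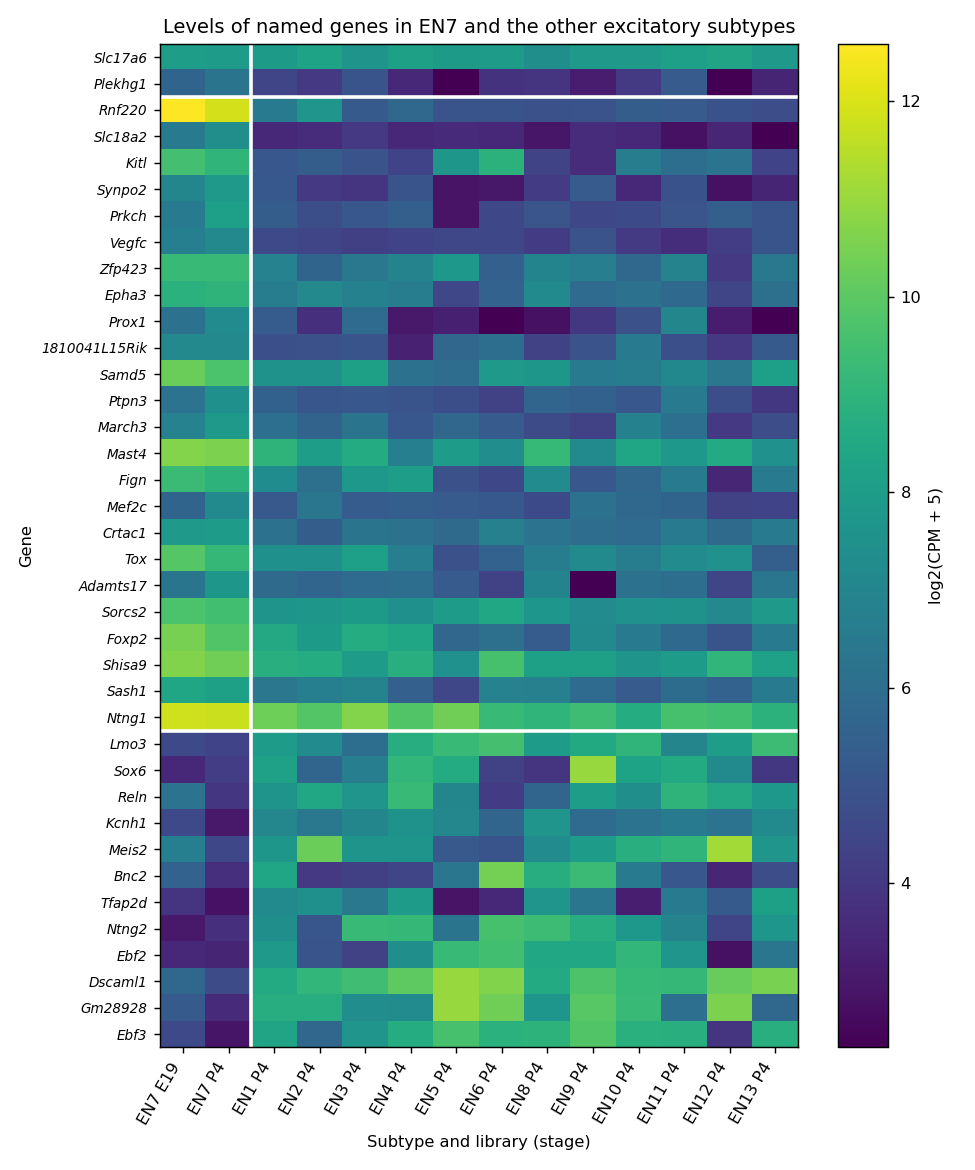
Colour gives log2(CPM + 5) of each gene (rows) in EN7 at E19 and P4 and in the 12 other excitatory subtypes at P4 (columns). White lines separate EN7 from the others, and 2 markers, the 24 genes highest in EN7 (from Rnf220 down to Ntng1) and the 12 genes lowest in it (from Lmo3 down to Ebf3). Rnf220 reaches 3921 CPM in EN7 at P4 and no more than 197 CPM in any other subtype.

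Slc18a2 (chr19:59260896-59296012), the vesicular monoamine transporter, followed Rnf220 with 164 CPM in EN7 and 6.02 CPM in the other excitatory neurons (log2 ratio 3.94, 3.71 to 4.16). Its level in EN3, the next subtype, was 11.1 CPM. Kitl, the ligand of the receptor tyrosine kinase Kit, stood at 521 against 52.0 CPM (3.21, 3.08 to 3.33), yet EN6 held 482 CPM of it, so Kitl separated EN7 from most subtypes and not from EN6. Its median was 7 UMIs per EN7 nucleus, and 8 of 191 held none. Synpo2, an actin-binding protein, was at 220 against 20.4 CPM, with 33.0 CPM in the next subtype, EN9.

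Among signalling genes, Prkch, a protein kinase C, stood at 273 against 30.4 CPM (2.97, 2.81 to 3.14). Vegfc, a secreted vascular endothelial growth factor, stood at 139 against 16.8 CPM (2.72, 2.51 to 2.93). Epha3, a receptor for ephrin-A ligands, was at 500 against 92.3 CPM (2.37, 2.26 to 2.49). Each of the 3 was low in every other excitatory subtype, whose highest values were 38.3 CPM in EN12 for Prkch, 27.0 CPM in EN13 for Vegfc and 146 CPM in EN8 for Epha3.

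The transcription factors of the list were Zfp423 (591 against 97.5 CPM), Prox1 (152 against 27.6), Mef2c (146 against 36.6), Tox (561 against 154) and Foxp2 (887 against 253). Prox1 was shared with EN11, which held 125 CPM. The remaining genes were the kinase Mast4 (1501 against 399 CPM), the microtubule-severing gene Fign (486 against 128), the phosphatase Ptpn3 (175 against 36.9), the AMPA receptor partner Shisa9 (1321 against 380), the proneurotrophin receptor Sorcs2 (717 against 201), Samd5, March3, Crtac1, Adamts17, Sash1 and 1810041L15Rik. Ranked instead, at 100 CPM or more in EN7, by the gap to the highest other excitatory subtype, Rnf220 led with a log2 gap of 4.28, then Slc18a2 with 3.39, Prkch with 2.68, Synpo2 with 2.57 and Vegfc with 2.17. Below that minimum Slc6a4, at 58.0 CPM, had a gap of 3.12. Next by that gap came Epha3, Samd5, Zfp423, Mast4, Prkag2, Sash1 and Crtac1, with gaps from 1.74 down to 1.18. Of 1845 genes at 100 CPM or more in EN7, EN7 was the highest excitatory subtype in 262 (14.2%), and in 20 of them the gap was 2-fold or more. At 20 CPM or more in EN7 it was the highest in 498 of 6791 genes (7.33%), with 46 such gaps. Both minimums were set on the level in EN7 itself, which favours genes high in it, so these shares are a description.

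At the other end, the 12 genes lowest in EN7 stood at 2.16 to 20.2 CPM in it and at 123 to 630 CPM in the other excitatory neurons. Of these, 6 encode DNA-binding transcription factors. Ebf3 was at 2.52 against 331 CPM (-5.48, -5.81 to -5.04), Ebf2 at 5.40 against 227 (-4.48), Tfap2d at 2.16 against 132 (-4.26), Bnc2 at 8.29 against 246 (-4.24), Meis2 at 18.4 against 411 (-4.15) and Sox6 at 13.3 against 268 (-3.90). Ebf3 was absent from 184 of 191 EN7 nuclei and never exceeded 1 UMI in the rest. The others were the adhesion molecule Dscaml1 (20.2 against 630 CPM), netrin-G2 (Ntng2, 7.93 against 261), the potassium channel Kcnh1 (3.24 against 123), the secreted glycoprotein Reln (10.4 against 233), the LIM-only gene Lmo3 (15.9 against 272) and the long noncoding RNA Gm28928 (6.85 against 496). EN7 was the lowest excitatory subtype in 9 of the 12. EN12 shared low levels of Ebf3 (9.56 CPM) and Ebf2 (1.91 CPM), while it held the highest level of Meis2, 2282 CPM. Bnc2 was lower in EN12 (5.74 CPM) and Sox6 in EN8 (10.1 CPM) than in EN7. Tfap2d in EN5 (2.22 CPM) and Reln in EN6 (12.05 CPM) stood close to EN7. Ntng2 in EN12 (17.2 CPM) and Meis2 in EN6 (27.1 CPM) were also low. For Kcnh1, Gm28928, Lmo3 and Dscaml1 no other excitatory subtype stood below 45.2 CPM.

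Upstream sequences are shown for the 2 genes that set EN7 apart most and for the 1 leading gene whose window held a binding motif of the Tcf7l2 family, since Tcf7l2 itself was higher in EN7. They are the 250 bases before the RefSeq transcript start (GRCm38.p6), 5′ to 3′ along the gene, in lower case with the motif in capitals: Rnf220 at chr4:117375462-117375711 on the minus strand, Slc18a2 at chr19:59260628-59260877 on the plus strand and Fign at chr2:64098039-64098288 on the minus strand. The Rnf220 window lies inside the longer gene span given above.
Rnf220: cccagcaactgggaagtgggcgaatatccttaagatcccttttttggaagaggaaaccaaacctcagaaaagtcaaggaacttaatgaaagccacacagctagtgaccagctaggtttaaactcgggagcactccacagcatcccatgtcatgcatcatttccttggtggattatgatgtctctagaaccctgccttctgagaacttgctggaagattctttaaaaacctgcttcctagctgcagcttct
Slc18a2: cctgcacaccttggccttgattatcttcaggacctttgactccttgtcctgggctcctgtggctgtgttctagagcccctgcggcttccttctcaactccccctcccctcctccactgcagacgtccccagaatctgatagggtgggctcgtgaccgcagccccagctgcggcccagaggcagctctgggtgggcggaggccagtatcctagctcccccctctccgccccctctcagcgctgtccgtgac
Fign: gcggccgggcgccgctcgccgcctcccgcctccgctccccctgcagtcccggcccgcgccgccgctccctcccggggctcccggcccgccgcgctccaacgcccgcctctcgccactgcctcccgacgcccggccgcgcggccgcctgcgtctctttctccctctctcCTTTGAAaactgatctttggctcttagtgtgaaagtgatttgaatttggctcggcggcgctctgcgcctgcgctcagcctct
The motif searched was CTTTGAT or CTTTGAA on both strands, in windows from 250 bases before to 50 after the start. It was found in 1 of the 17 leading genes that had a window (5.88%), in 3 of 9 of the lowest genes (33.3%) and in 9.88% of 27025 genes with a window. An EBF motif, TCCC and GGGA with any 2 bases between them, was found in 1 of 17, 0 of 9 and 1.06%, in the same order. These are letter matches only.

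Marker lists of brain regions divided in direction. The lists were chosen with earlier results of these data known, so their counts are a description and no separate check of EN7. They are to be read beside all genes compared at P4, of which 2.58% were at least 2-fold higher in EN7 and 3.83% lower. Of 17 dorsal thalamus genes, 12 passed 20 CPM at P4, of which 8 were at least 2-fold higher in EN7 and 0 lower, with a median log2 ratio of 1.43. These were Synpo2 (3.15), Prox1 (2.27), Ptpn3 (2.10), Plekhg1 (2.0), Foxp2 (1.79), Ntng1 (1.74), Tcf7l2 (1.13) and Adarb1 (1.08). Ntng1 and Plekhg1 were also supplied markers of EN7. Synpo2, Prox1, Ptpn3, Foxp2 and Ntng1 were among the 24 genes already picked above for their ratio in this library. The 4 other genes that passed were Cacna1g (0.59), Lef1 (0.26), Rora (-0.19) and Lhx2 (-0.37). The other 5 genes were under 20 CPM in both groups: Prkcd at 13.7 CPM in EN7 against 6.44 in the other excitatory neurons, Slc17a7 at 13 against 3.38, Gbx2 at 4.68 against 0.413, Rgs16 at 3.60 against 1.90 and Tnnt1 at 0.360 against 0.0825. Gbx2, from 13 UMIs, was highest in EN7 among the 25 neuron subtypes, Slc17a7 was next to EN10 (47.8 CPM), and Prkcd was higher in EN12 (30.6) and EN4 (15.7). Summed over the list EN7 stood at 9109 CPM and the other excitatory neurons at 4650, but EN12 stood higher, at 12074 CPM, of which the nuclear receptor Rora alone gave 10326. At E19, where 3.17% of all genes compared were 2-fold higher in EN7 and 5.75% lower, 6 of 12 were higher and 0 lower, with summed levels of 10620 CPM in EN7 and 4968 in the others.

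Of 16 genes known from excitatory neurons of the colliculus, 11 passed 20 CPM, of which 0 were higher and 6 lower, with a median log2 ratio of -1.34. The shares over all genes compared at P4 were 2.58% higher and 3.83% lower. Beside Ebf3, Ebf2 and Tfap2d these were Tfap2b (20.9 against 128 CPM), Pou4f1 (1.80 against 25.3) and the neuropeptide gene Tac1 (8.65 against 29.5). Ebf1 (435 against 831 CPM), Lhx9 (131 against 136) and Rorb (434 against 260) did not reach 2-fold. Summed levels were 1113 CPM in EN7 and 2235 in the other excitatory neurons, with a range of 538 (EN12) to 6187 (EN6) over the other subtypes. Both midbrain patterning genes that passed, Meis2 and Meis1, were lower. At E19 the same lists gave 0 higher and 6 lower of 12, and 0 higher and 2 lower of 2, beside 3.17% higher and 5.75% lower over all genes. Tissue of origin was not tested, and the labels name the superior colliculus for every library.

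**Figure D3:**
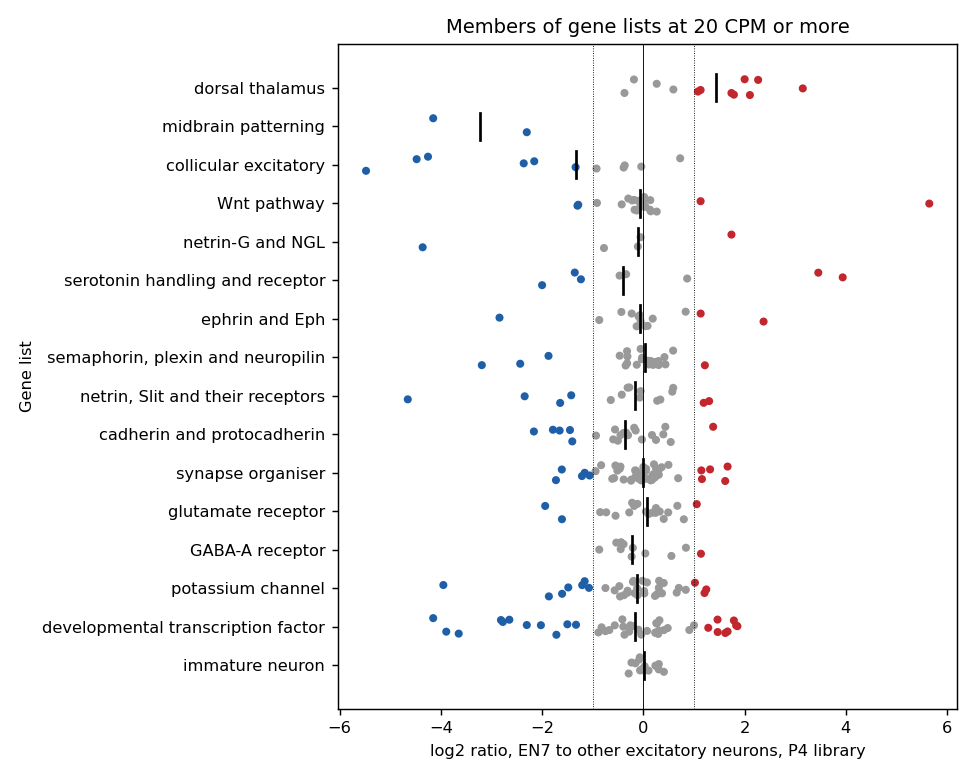
Each point is a gene of a list (rows) at 20 CPM or more, at its log2 ratio of EN7 to the other excitatory neurons in the P4 library. Red and blue mark 2-fold higher and lower, dotted lines stand at 1 and -1, and black bars give list medians. The dorsal thalamus list has 8 of 12 genes beyond the upper line and the collicular excitatory list 6 of 11 beyond the lower. Over all genes compared, 2.58% lie beyond the upper line and 3.83% beyond the lower. The lists were chosen with earlier results of these data known.

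Markers of other cells were looked at in the same way. The 13 inhibitory neuron genes summed to 86.5 CPM in EN7 and 151 CPM in the other excitatory neurons at P4, Dlx1 and Dlx2 were at 0 UMIs in EN7, and neither of the 2 genes that passed reached 2-fold. Habenula genes summed to 21.6 against 56.7 CPM, with Tac2 and Chrnb3 at 0. No microglial, endothelial, leptomeningeal or dividing-cell gene passed 20 CPM, and these lists summed to 12.2, 7.93, 31.0 and 3.60 CPM in EN7. The 6 astrocyte genes summed to 237 against 121 CPM. In that list the glutamate transporter gene Slc1a3 was at 48.3 against 13.4 CPM and Slc1a2 at 159 against 82.7, while Aqp4, Gfap, Aldh1l1 and Gja1 stayed at or under 15.1 CPM. In the oligodendrocyte list 1 nucleus of 29828 UMIs stood apart: it held all 85 UMIs of Mobp, a myelin gene, in EN7 at P4, besides 127 of Rnf220. Without it Mobp was at 0, and the counts of genes 2-fold higher and lower in EN7 were 189 and 286.

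Of 17 genes of serotonin handling and its receptors, 8 passed 20 CPM, with 2 higher and 3 lower. Over all genes compared at P4 the shares were 2.58% and 3.83%. Slc18a2 was found in 122 of 191 EN7 nuclei and in 56 of 1015 other excitatory nuclei. Slc6a4 (chr11:76998603-77032340), the plasma membrane serotonin transporter, stood at 58.0 CPM in EN7 and 0.743 CPM in the other excitatory neurons (3.46, 3.19 to 3.69). It was found in 63 EN7 nuclei and 9 other excitatory nuclei. Both transporters were found together in 54 EN7 nuclei and 1 other nucleus, and 60 EN7 nuclei held neither. After thinning, Slc18a2 was found in 25.1% of EN7 nuclei and 0.897% of astrocytes, and Slc6a4 in 12% of EN7 nuclei and in 0 of 223 astrocytes, which allows a share of up to 1.35% (3 counts). At E19 Slc18a2 was at 86.8 against 6.77 CPM (2.96, 2.37 to 3.51) and Slc6a4 at 32.1 against 4.90 CPM (1.91, 1.02 to 2.72), the last from 10 UMIs in 4 nuclei. The receptor genes Htr2a (2.16 against 23.7 CPM), Htr4 (42.9 against 118) and Htr1f (14.4 against 40.7) were lower. Htr7 was at 74.6 against 38.7 CPM (0.86, 0.64 to 1.08), short of 2-fold, and EN7 was the highest excitatory subtype for it.

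Of 42 Wnt pathway genes, 23 passed 20 CPM, with 2 higher, 2 lower and a median log2 ratio of -0.06. Over all genes compared at P4, 2.58% were higher and 3.83% lower, so this and the lists that follow are to be read against those shares. Beside Rnf220 the higher gene was Tcf7l2, a transcription factor that acts with beta-catenin, at 1392 against 633 CPM (1.13, 1.07 to 1.19). EN2 held nearly as much of it, 1238 CPM. Every EN7 nucleus of P4 held it, with 1 to 66 UMIs and a median of 19. The lower genes were Axin2, a feedback inhibitor that is itself a Wnt target, at 16.9 against 49.1 CPM, and the beta-catenin cofactor Bcl9, at 45.8 against 119 CPM. Lef1, the relative of Tcf7l2, was at 524 against 436 CPM.

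Netrin-G genes were opposite to each other. Ntng1 was 3506 against 1046 CPM and Ntng2 7.93 against 261 CPM, while the genes of their postsynaptic partners, Lrrc4c (1743 against 2996 CPM), Lrrc4 (22 against 24.1) and Lrrc4b (120 against 125), stayed within 2-fold. Of 14 Eph and ephrin genes that passed, Epha3 and Epha4 (364 against 163 CPM) were higher and Ephb1 (113 against 843 CPM) was lower. In the semaphorin list the receptors Nrp1 (32.8 against 340 CPM) and Nrp2 (26.3 against 164) and the ligand Sema3c (7.21 against 39.8) were lower, and of 24 that passed only the plexin gene Plxnb1 (41.1 against 14.9) was higher. EN7 was the lowest excitatory subtype for Ephb1, Nrp1 and Nrp2. Epha4 was nearly as high in EN6, at 313 CPM.

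Among 16 netrin, Slit and receptor genes, Dscaml1, Unc5d (274 against 1413 CPM), Slit2 (98.0 against 317) and Dcc (641 against 1730) were lower, and Ntn4 (59.4 against 21.2) and Unc5b (20.2 against 6.02) were higher. Of 22 cadherin genes, Cdh6 was higher (470 against 178 CPM) and 5 were lower, among them Cdh9 (16.6 against 91.7), Cdh18 (326 against 1139) and Pcdh15 (725 against 2293). Cdh6 stood at 384 CPM in EN2. Of 17 contactin and L1 genes, Cntn5 was higher (5096 against 2292 CPM), and Cntn3 (140 against 413) and Cntnap3 (7.21 against 34.0) were lower. EN6 held more Cntn5 than EN7, 6211 CPM. Of 51 synapse organisers, 5 were higher: Nxph1 (834 against 260 CPM), Igsf21 (371 against 118), Tenm1 (1831 against 732), Tenm4 and Nrxn3. EN6 held more Nxph1 (1340 CPM), while EN7 was the highest excitatory subtype for Igsf21 and Tenm1. The 5 lower ones included Il1rap (11.5 against 49.8 CPM), Mdga1 (34.6 against 116) and Slitrk5 (11.2 against 32.5).

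Of 20 glutamate receptor genes, the kainate receptor subunit Grik2 was higher in EN7 (2635 against 1266 CPM), and the AMPA receptor subunit Gria3 (54.4 against 223) and the NMDA receptor subunit Grin2a (185 against 574) were lower. EN2 held nearly as much Grik2, 2349 CPM. Grin2a is known to rise as synapses mature, and EN7 was the lowest of the excitatory subtypes for it at P4. Of 11 GABA-A receptor genes, Gabra2 was higher (543 against 244 CPM) and 0 were lower. EN6 held as much Gabra2, 545 CPM. Of 36 potassium channel genes, 3 were higher, Kcnj6 (390 against 162 CPM), Kcnh8 (279 against 118) and Kcnk10 (412 against 201), and 7 were lower, led by Kcnh1, Kcnk9 (3.24 against 25.1) and Kcnip1 (145 against 451). EN12 held more Kcnj6 (459 CPM), while EN7 was the highest excitatory subtype for Kcnh8 and Kcnk10. Of 30 sodium, calcium and HCN channel genes, 1 was higher and 2 were lower. Among the calcium channel subunit genes, Cacna2d1 (442 against 1100 CPM) was lower and Cacna2d3 (710 against 222) was higher. EN12 held nearly as much Cacna2d3, 647 CPM. The muscarinic receptor gene Chrm3 was lower (269 against 824 CPM). Of 3 neuropeptide genes that passed, Cck was higher (64.5 against 10.9 CPM) and 2 were lower. In EN7, 128 of the 191 nuclei held no UMI of Cck.

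Of 44 developmental transcription factor genes, 8 were higher and 11 lower. Beside those named above, Sox5 (629 against 195 CPM) was higher, and Pbx3 (41.4 against 322), Bcl11b (8.29 against 162), Tshz2 (101 against 657) and Meis1 (5.40 against 46.4) were lower. Of 15 nuclear receptor genes, Nr2f1 was higher (171 against 58.4 CPM), and Nr3c2, the mineralocorticoid receptor (13 against 124), Esrrb and Esrrg were lower. Nr2f1 stood at 142 CPM in EN11. None of 15 immature neuron genes reached 2-fold, their median log2 ratio being 0.01.

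At E19, 242 of 7624 genes were at least 2-fold higher in EN7 (3.17%) and 438 at least 2-fold lower (5.75%). EN7 held only 33 nuclei there, so that 20 CPM stood for about 6 UMIs and many of those counts were imprecise. Over all genes compared at E19, 47.7% had a log2 ratio above 0, and the counts that follow are to be read beside these shares. Of the 24 genes highest at P4, 23 were above 0 at E19 and 21 reached 2-fold, the exception below 0 being Mef2c (45.0 against 82.4 CPM, -0.81, -1.57 to -0.11). All 12 of the lowest were again 2-fold lower. Over genes compared in both libraries, 153 were 2-fold higher at P4, of which 143 were above 0 and 104 reached 2-fold at E19. Of 258 lower at P4, 248 were below 0 and 168 reached 2-fold. The 2 libraries came from separate tissue pools, but the EN7 label was drawn over both.

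**Figure D4:**
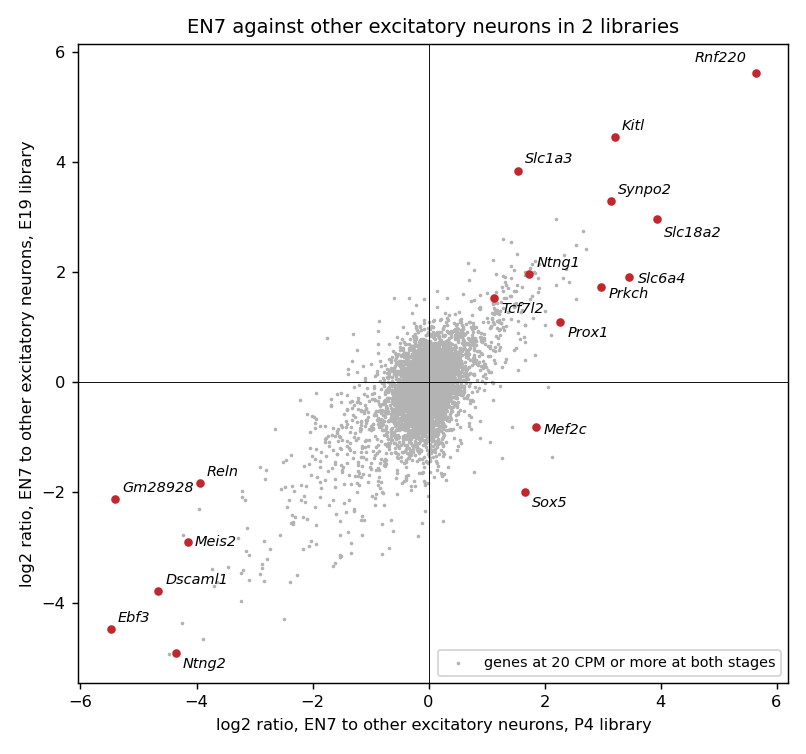
Each point is a gene at 20 CPM or more in both libraries, at its log2 ratio of EN7 to the other excitatory neurons at P4 (x axis) and E19 (y axis), with named genes in red. Rnf220 lies at 5.65 and 5.62, the lowest genes lie at the lower left, and Sox5 (1.66 and -2.0) and Mef2c lie at the lower right.

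A few genes stood out more at E19 than at P4. Slc1a3 was at 286 against 15.2 CPM in the E19 library (3.85, 3.49 to 4.18), where 16 of 33 EN7 nuclei held it. The whole astrocyte list summed to 476 CPM in EN7 against 142, from 148 UMIs, of which Slc1a3 gave 89 and Slc1a2 57, while Aqp4 and Gja1 gave 1 each and Gfap and Aldh1l1 were at 0. Kitl was at 736 against 28.7 CPM (4.46, 4.22 to 4.69), and all 33 nuclei held it. Tshz1, a zinc-finger gene, was at 247 against 36.6 CPM (2.60, 2.24 to 2.94).

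Between E19 and P4, 341 of 7505 genes were at least 2-fold higher in EN7 at P4 (4.54%) and 252 at least 2-fold lower (3.36%). The other excitatory neurons, with far more UMIs, gave 22 of 7427 higher (0.296%) and 49 lower (0.66%). At 100 CPM or more the largest ratio of P4 to E19 was that of Sox5, a SoxD transcription factor, from 41.8 to 629 CPM (log2 ratio 3.76, 3.05 to 4.54), while the other excitatory neurons stood at 182 and 195 CPM. Zfp804b went from 331 to 2146 CPM (2.68, 2.40 to 2.97). Prr16, Col25a1, Pex5l, Prickle1 and the phosphodiesterase gene Pde7b followed, with log2 ratios from 2.69 down to 2.14. In the other excitatory neurons these 7 genes differed by at most 0.43 between the libraries.

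The smallest ratios of P4 to E19 at 100 CPM or more were those of Slc1a3, from 286 to 48.3 CPM (-2.45, -2.82 to -2.07), Meis2, from 103 to 18.4 CPM (-2.21, -2.78 to -1.60), Tshz2, from 472 to 101 CPM (-2.18) and Nr2f2, from 132 to 28.1 CPM (-2.05). The radial glial fatty acid binding protein gene Fabp7 (-1.75) and Tcf4 (-1.72), Tnr (-1.70) and Pbx3 (-1.66) came next. In the other excitatory neurons Fabp7 also differed, by -1.13, and Meis2 by -0.95. The E19 level of Meis2 in EN7 rests on 32 UMIs, of which 1 nucleus held 20, and 20 of 33 nuclei held none. For Nr2f2, 24 of the 33 nuclei held none and 1 held 13 UMIs. The intervals do not cover such spread between nuclei. Of 15 immature neuron genes, 3 were past 2-fold lower at P4 in EN7, against 2 in the other excitatory neurons. All 15 ratios were below 0 in both groups, with medians of -0.87 and -0.90, and the difference between the groups was not tested. Rnf220 went from 6131 to 3921 CPM (-0.64, -0.71 to -0.57), close to the -0.67 of the other excitatory neurons, and Ntng1 stayed at 3618 and 3506 CPM.

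The libraries also differed in ways that the stages may or may not share. Xist, the transcript of the inactive X chromosome, was found in 0 of 33 EN7 nuclei at E19, which allows a share of up to 9.09%, and in 37.2% at P4, and in 0.460% and 44.4% of the other excitatory neurons. The choroid plexus gene Ttr stood at 0 CPM in EN7 at E19 and 59.4 at P4, beside 0.0891 and 75.7 CPM in the other excitatory neurons. A UMI of any of 4 Y-linked genes was found in 97.0% of EN7 nuclei at E19 and 74.3% at P4, and in 84.1% and 64.8% of the other excitatory neurons. The sex makeup of the pools and stage cannot be told apart in the ratios between the libraries. The part of pool makeup and of free RNA in the stage differences was not tested.

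The profile of EN7 at P4, over 10357 genes at 20 CPM or more in any neuron subtype, was closest to EN1 (Pearson r = 0.943 on log2(CPM + 5)), EN2 (0.939), the inhibitory subtype IN1 (0.939) and EN3 (0.932). Its correlation with EN7 at E19 was 0.930, and with EN13, the least alike excitatory subtype, 0.847. Over the 3468 genes at 100 CPM or more the order was another: EN7 at E19 was closest (0.929), before EN2 (0.891), EN1 (0.890), EN3 (0.882) and IN1 (0.879). These values are across genes, which are not independent, and subtypes with fewer nuclei have noisier profiles. Against EN1, EN2 and EN3 alone, weighted alike, all 24 leading genes were at least 2-fold higher in EN7 (log2 ratios 1.40 to 5.15) and all 12 of the lowest at least 2-fold lower (-4.82 to -2.90). These 3 subtypes supplied 419, 107 and 71 of the 1015 nuclei against which those genes were picked, so this is no separate check. Tcf7l2 was not 2-fold higher against them, with a log2 ratio of 0.48.

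EN7 nuclei of P4 also differed among themselves. Over 4917 genes the median of the chi-square per degree of freedom, which is 1 where only counting error separates nuclei, was 1.21. The most variable gene was the adhesion gene Tenm2 (112), with 3 to 1100 UMIs per nucleus and a median of 109. Kcnip4 (52.2), Lsamp (47.4), Cntn5 (43.1) and Rbfox1 (36.1) were next among genes whose spread did not rest on 1 nucleus. Mbp (65.3) and Cnksr3 (52.0) owed their place to the single nucleus with oligodendrocyte genes, which held 113 of 119 UMIs of Cnksr3.

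Sox5, the gene with that largest ratio, was itself unevenly spread. At P4, 92 of 191 EN7 nuclei (48.2%) held no UMI of it, 35 held 1 to 4 and 64 held 5 or more, up to 110. At E19, 25 of 33 held none and 0 held 5 or more. The 63 nuclei with 5 or more, leaving out the nucleus with oligodendrocyte genes, were set against the 92 with none, a division chosen after the values were seen and therefore a description of nuclei of 1 library. Of 7263 genes, 106 (1.46%) were at least 2-fold higher in the nuclei with Sox5 and 148 (2.04%) at least 2-fold lower. The median depths were 14893 and 12605 UMIs, and Xist was found in 38.1% and 34.8%.

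**Figure D5:**
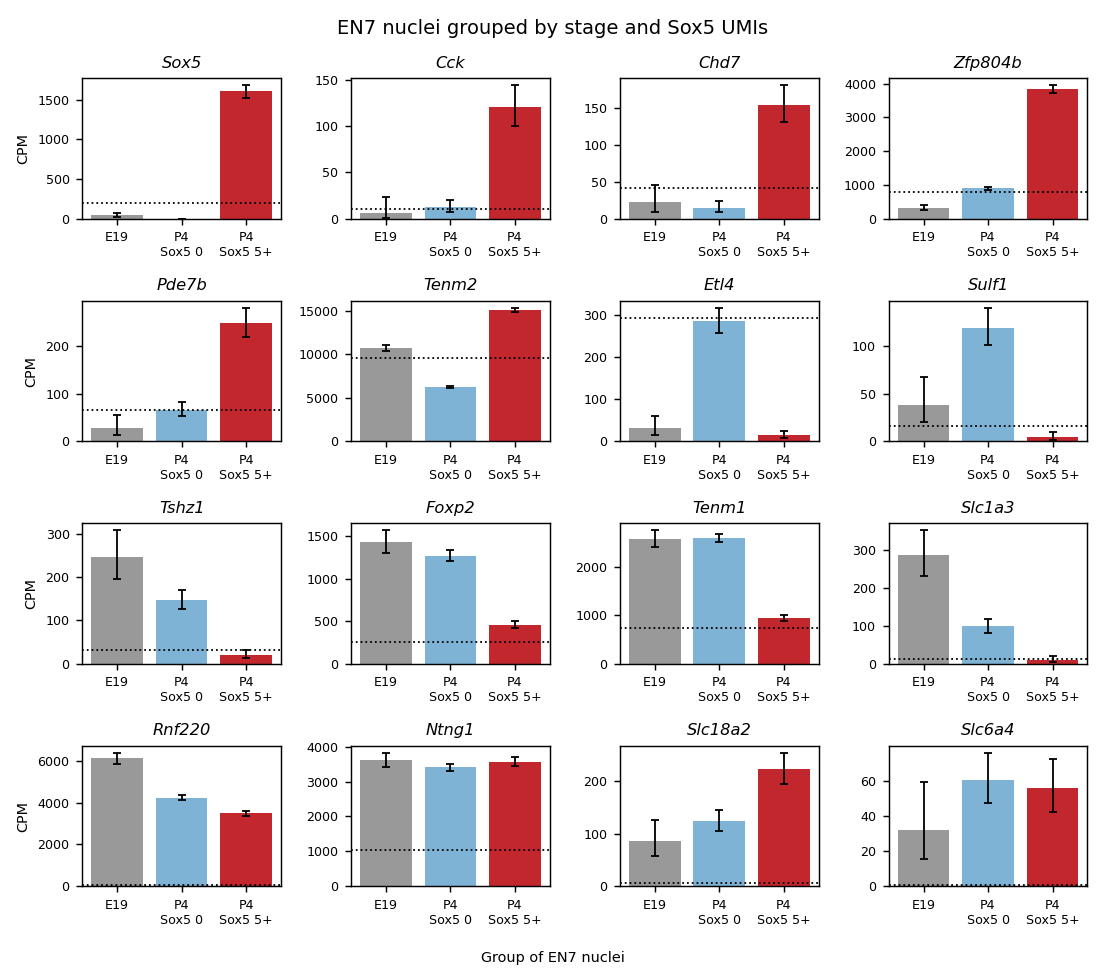
Bars give the level (CPM, separate y axes) of each gene in EN7 nuclei of E19, in P4 nuclei with no Sox5 UMI and in P4 nuclei with 5 or more, with exact Poisson 95% intervals; the dotted line is the level in the other excitatory neurons at P4. Rnf220, Ntng1 and Slc6a4 stand far above the dotted line in all 3 groups, while Cck, Chd7 and Zfp804b are high with Sox5 and Etl4, Sulf1 and Foxp2 without it.

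With Sox5 went the chromatin remodeller gene Chd7 (155 against 14.9 CPM, 3.00, 2.43 to 3.57), Cck (121 against 12.4, 2.85), Ankfn1 (198 against 25.7), Zfp804b (3832 against 898, 2.09) and Pde7b (249 against 66.3, 1.83). Tenm2 was at 15158 against 6280 CPM. Without Sox5 went Etl4 (286 against 14 CPM), the heparan sulfatase gene Sulf1 (119 against 3.99), Tshz1 (147 against 19.9), the noncoding RNA Rmst (444 against 70.8) and Thsd7b (632 against 112). Foxp2 (1269 against 457 CPM), Tox (813 against 307), Tenm1 (2599 against 948) and Slc1a3 were also higher in the nuclei without Sox5.

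Of the other genes that set EN7 apart, some were within 2-fold between these groups and some were not. Rnf220 stood at 3495 CPM with Sox5 and 4234 without, Ntng1 at 3574 and 3408, Slc6a4 at 55.8 and 60.5, Kitl at 540 and 519 and Synpo2 at 214 and 234. Slc18a2 was at 223 CPM with Sox5 and 124 without. Plekhg1 was past 2-fold, with 101 against 46.4 CPM (1.04, 0.60 to 1.49), and Foxp2 and Tox, both among the 24 leading genes, were over 2-fold lower with Sox5, as given above. Slc17a6, which did not set EN7 apart, was at 278 and 220 CPM. Over 7757 genes the EN7 profile of E19 correlated with the nuclei without Sox5 at r = 0.910 and with those with 5 or more at 0.883, and the last 2 groups with each other at 0.949. The levels of Tshz1 (247 CPM), Foxp2 (1430), Tenm1 (2580) and Tox (929) at E19 lay nearer to the nuclei without Sox5, while Etl4 (32.1) and Tenm2 (10739) did not.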

How the data were processed

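Nuclei of the superior colliculus were captured on the 10x Genomics platform (3′ v3 kit, aiming at 2000 nuclei a library) and processed with Cell Ranger 3.0.2 against a pre-mRNA reference of mm10, per the labels' protocols, so that intronic reads were counted. The deposited matrix held counts of UMIs for 31053 genes and 9724 nuclei, not normalised, and the deposited table of nuclei gave stage, class, subtype and cluster, with mitochondrial and ribosomal percent per nucleus. How nuclei and doublets were filtered and whether counting used strand are not given in the sources used here, and no doublet caller was run. Another 4 per-nucleus columns were not used.

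Counts were summed per subtype and library and scaled to CPM. A gene was compared at 20 CPM or more in the higher group and called at a log2 ratio of 1 or more, or -1 or less, after adding 5 CPM, with intervals from exact Poisson bounds. Shares have Clopper-Pearson intervals, and shares of nuclei with a UMI were taken after thinning to 2300 UMIs. No p-value was computed. The fold call and its interval were run on simulated Poisson counts only. Such counts lack the spread between nuclei beyond counting error, so coverage in the real data was not tested. The named genes are the supplied markers, the 24 highest and 12 lowest ratios at P4 and the 12 largest gaps to the next excitatory subtype at 100 CPM or more, the 8 largest rises and falls between stages, the 3 highest and lowest members of each gene list and the 8 most variable genes. Genes of the mitochondrion, ribosomal proteins, haemoglobin and the sex chromosomes were not ranked. A few items are not reported here. Gbx2, Prkcd, Slc17a7, Tnnt1, Rgs16, Mobp, Cck, Tshz1, Chd7, Etl4, Sulf1, Rmst and the other genes of the Sox5 division or a list that lie outside that rule were chosen after their values were seen. The members and lists were chosen with earlier results of these data known.

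Positions come from GENCODE M21 (GRCm38), in which 99.9% of gene identifiers were found; of 179 named genes 94 overlap a gene on the other strand and 71 one on the same strand, among them Sox5, Rnf220, Gm28928 and Rmst, so some reads may belong to a neighbour. Scripts used Python 3.11.15, numpy 2.4.6, scipy 1.17.1, pandas 2.3.3 and matplotlib 3.10.9.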

Additional observations from a re-analysis of the deposited data

Results flagged for a closer look

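In 3 genes reported here the ratio of EN7 to the other excitatory neurons passed 2-fold in opposite directions in the P4 and E19 libraries; the difference between the libraries was not tested, since each stage has 1. Sox5 had a log2 ratio of 1.66 at P4 and -2.0 at E19. Pde7b had 1.06 and -1.08, and Cck 2.13 and -1.36. At E19 these ratios rest on 13, 9 and 2 UMIs of EN7, in that order. Rnf220 gave 51 UMIs in the 1 EN7 nucleus of P21, which lies outside the comparisons.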

How the results depend on the processing

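The counts of genes past 2-fold moved with the added CPM and with the minimum. At P4, 191 higher and 284 lower became 123 and 177 with 20 CPM added, and 92 and 127 at a minimum of 100 CPM. At E19, 242 and 438 became 104 and 202 with 20 CPM added, 88 and 137 at 100 CPM, 390 and 988 with no minimum, and 841 and 1193 after thinning to 2300 UMIs per nucleus, which leaves EN7 few UMIs. Between the stages, 341 and 252 became 138 and 76 with 20 CPM added, 71 and 57 at 100 CPM, 875 and 459 with no minimum, and 1193 and 1041 after thinning; with 1 CPM added 385 were lower. The shares of EN7 nuclei with a UMI at P4, thinned to 2300, unthinned and thinned to 4000, were 36.1, 90.6 and 59.8% for Slc17a6, 99, 100 and 100% for both Rnf220 and Ntng1, 11, 42.4 and 20.6% for Plekhg1, and 25.1, 63.9 and 36.5% for Slc18a2. Of the 8 most variable genes 5 remained without the tenth of nuclei with the most UMIs. A change of direction was counted only for genes past 2-fold in the main setting. Of 895 values of single named genes under other settings, 705 stayed within their interval, 189 moved outside it and 1 changed direction in that sense. This was Sox5 between the stages, which became -3.23 with the P4 nuclei that hold no Sox5 UMI, by construction. With those nuclei only, an alternative chosen after seeing the data like that without the nucleus with Mobp, Zfp804b was at 1.43 and Pde7b at 1.07. Median-of-ratios scaling shifted all ratios by 0.027 at P4, -0.024 at E19 and 0.098 between the stages. The 8 thalamic and 6 collicular calls at P4 ranged from 7 to 9 and from 4 to 9. No paired analysis was possible because each stage has 1 library. At E19 depth limits every ratio of a gene under 100 CPM.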

Other observations

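Rnf220 was not restricted to EN7 across the tissue. Myelinating oligodendrocytes of P21, the cells that wrap axons, held 5266 CPM of it (5153 to 5381) and committed oligodendrocytes 2641 CPM (2499 to 2790). Vascular leptomeningeal cells held 944 CPM at P4 (860 to 1034), with 982 CPM at E19, 806 at P8 and 558 at P21. Among excitatory neurons outside EN7, 30 of 1305 nuclei at E19, 18 of 1015 at P4, 3 of 866 at P8 and 6 of 681 at P21 held 10 or more UMIs of Rnf220, against 31 of 33 and 188 of 191 EN7 nuclei. EN11 at E19 was the highest of the other excitatory subtypes, with 401 CPM (355 to 452).

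The authors' table also gives each nucleus labels transferred from reference data. In one set, label 24 was carried by 186 of 191 EN7 nuclei at P4 and 27 of 33 at E19, and 215 of the 218 nuclei with that label were EN7. In the other set, the EN7 nuclei of P4 were divided into ESC1 (134), ESC2 (54) and ISC5 (3), or 70.2, 28.3 and 1.57%. The other excitatory neurons of P4 carried these labels in 67.8, 28.6 and 3.65%, so ESC1 and ESC2 did not set EN7 apart.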
